A study of Mus musculus with 4 samples.

Results

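The genes described here make, carry and break down the monoamines dopamine, noradrenaline and serotonin. They were chosen by name, as the rows of the count table for Th, Gch1, Ddc, Slc18a2, Slc6a3, Maoa and Maob, and all 7 were found among the 19465 genes measured. Coronal sections of the brain were taken from 4 mice. Of these, 2 were wild type and 2 were heterozygous for Celsr3, which codes for a cadherin-type adhesion receptor. The mice had no treatment, the labels mark 2 biological replicates per genotype, and age, sex and strain are not given in the sources used here. The brains were formalin-fixed, paraffin-embedded and trimmed to show the striatum, and the study asked how lower Celsr3 dosage affects dopamine in the striatum. The Visium CytAssist assay counts gene probes on a grid of spots, each of which can hold several cells.

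The spot barcodes carry 4 endings, called sets 1 to 4 below, and the labels link 0 of these 4 sets to an animal or its genotype. No heterozygous section was therefore compared with a wild-type one. Every value is given per set, with no SD and no p-value, and the 95% intervals reflect counting error alone. Set totals ran from 90752475 to 174761560 counts over 2808 to 3444 kept spots, and 1613 of 4744 barcodes occurred in all 4 sets. The sets did not show the same tissue: choroid plexus markers summed to 7518, 91.1, 6350 and 676 counts per 1000000 counts (CPM) in sets 1 to 4.

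Tyrosine hydroxylase, coded by Th, performs the rate-limiting step of catecholamine synthesis with tetrahydrobiopterin, whose own synthesis starts with the enzyme coded by Gch1, and the decarboxylase coded by Ddc completes dopamine and serotonin. The vesicular carrier coded by Slc18a2 (VMAT2) packs monoamines for release, the dopamine carrier coded by Slc6a3 (DAT) takes dopamine back up, and the monoamine oxidases coded by Maoa and Maob break monoamines down. Dopamine neurons that supply the striatum have their cell bodies in the midbrain, while the hypothalamus holds dopamine neurons of its own.

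The sequence around the members' start sites was searched for the cAMP response element, a site bound by CREB. RefSeq promoter windows (build GRCm38.p6, 250 bases before to 50 after the start) were matched by symbol, which gave 7 windows for 6 members, all but Maob. Its consensus, TGACGTCA, which reads the same on both strands, was present in 2 of the 7 windows, those of Th and Slc18a2, and in 588 of all 32851 windows (1.79%). The Th window is chr7:142899946-142900245 on the minus strand and the Slc18a2 window is chr19:59260628-59260927 on the plus strand. The capitals mark the element, which begins 45 bases before the start site of Th and 4 bases before that of Slc18a2.
Th promoter: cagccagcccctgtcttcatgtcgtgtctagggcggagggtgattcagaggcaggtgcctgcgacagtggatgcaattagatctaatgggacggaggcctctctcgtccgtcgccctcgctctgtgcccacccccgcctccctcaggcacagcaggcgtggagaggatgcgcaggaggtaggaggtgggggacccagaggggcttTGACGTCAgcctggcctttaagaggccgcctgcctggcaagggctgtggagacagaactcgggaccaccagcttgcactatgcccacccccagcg
Slc18a2 promoter: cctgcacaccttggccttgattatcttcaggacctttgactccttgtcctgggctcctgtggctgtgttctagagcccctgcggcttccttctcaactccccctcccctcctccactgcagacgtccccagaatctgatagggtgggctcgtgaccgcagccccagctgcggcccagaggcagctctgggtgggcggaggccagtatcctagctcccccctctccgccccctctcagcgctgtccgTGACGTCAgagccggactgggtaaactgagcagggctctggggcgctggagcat
These letters are a match, not a measured site. The windows of Gch1, Ddc, Slc6a3 and Maoa did not hold them. Only this exact sequence was searched, and its part in the levels described below was not tested.

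Spots were grouped into 27 clusters with the 7 genes left out, and clusters were assigned to areas by marker genes that hold none of them. The striatum held 2648 spots, the cortex 4105, the hypothalamus 1083 and the ventricle lining 135, and 4630 spots were in other clusters. Set by set the striatum took 641, 721, 797 and 489 spots, the hypothalamus 252, 225, 306 and 300, and the ventricle lining 24, 29, 41 and 41. The 14 striatal markers summed to 14892.8 to 17606.5 CPM over the sets in the striatum and to 654.1 to 801.1 CPM in the cortex. The 16 hypothalamic markers summed to 5714 to 11331.0 CPM in the hypothalamus, and to 5055 to 12491.8 CPM in the ventricle lining, so the ventricle-lining spots carried hypothalamic markers too. A gene is called higher or lower in an area where its level was at least 1.5-fold that of all other spots, or the reverse, in all 4 sets. The rule was applied to 13773 genes whose mean over the sets reached 1 CPM, among them 6 of the 7 members. In a spot, fewer cells of a type and less RNA per cell cannot be told apart. Probes read part of each transcript, so levels are compared within a gene and not between genes.

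**Figure D1:**
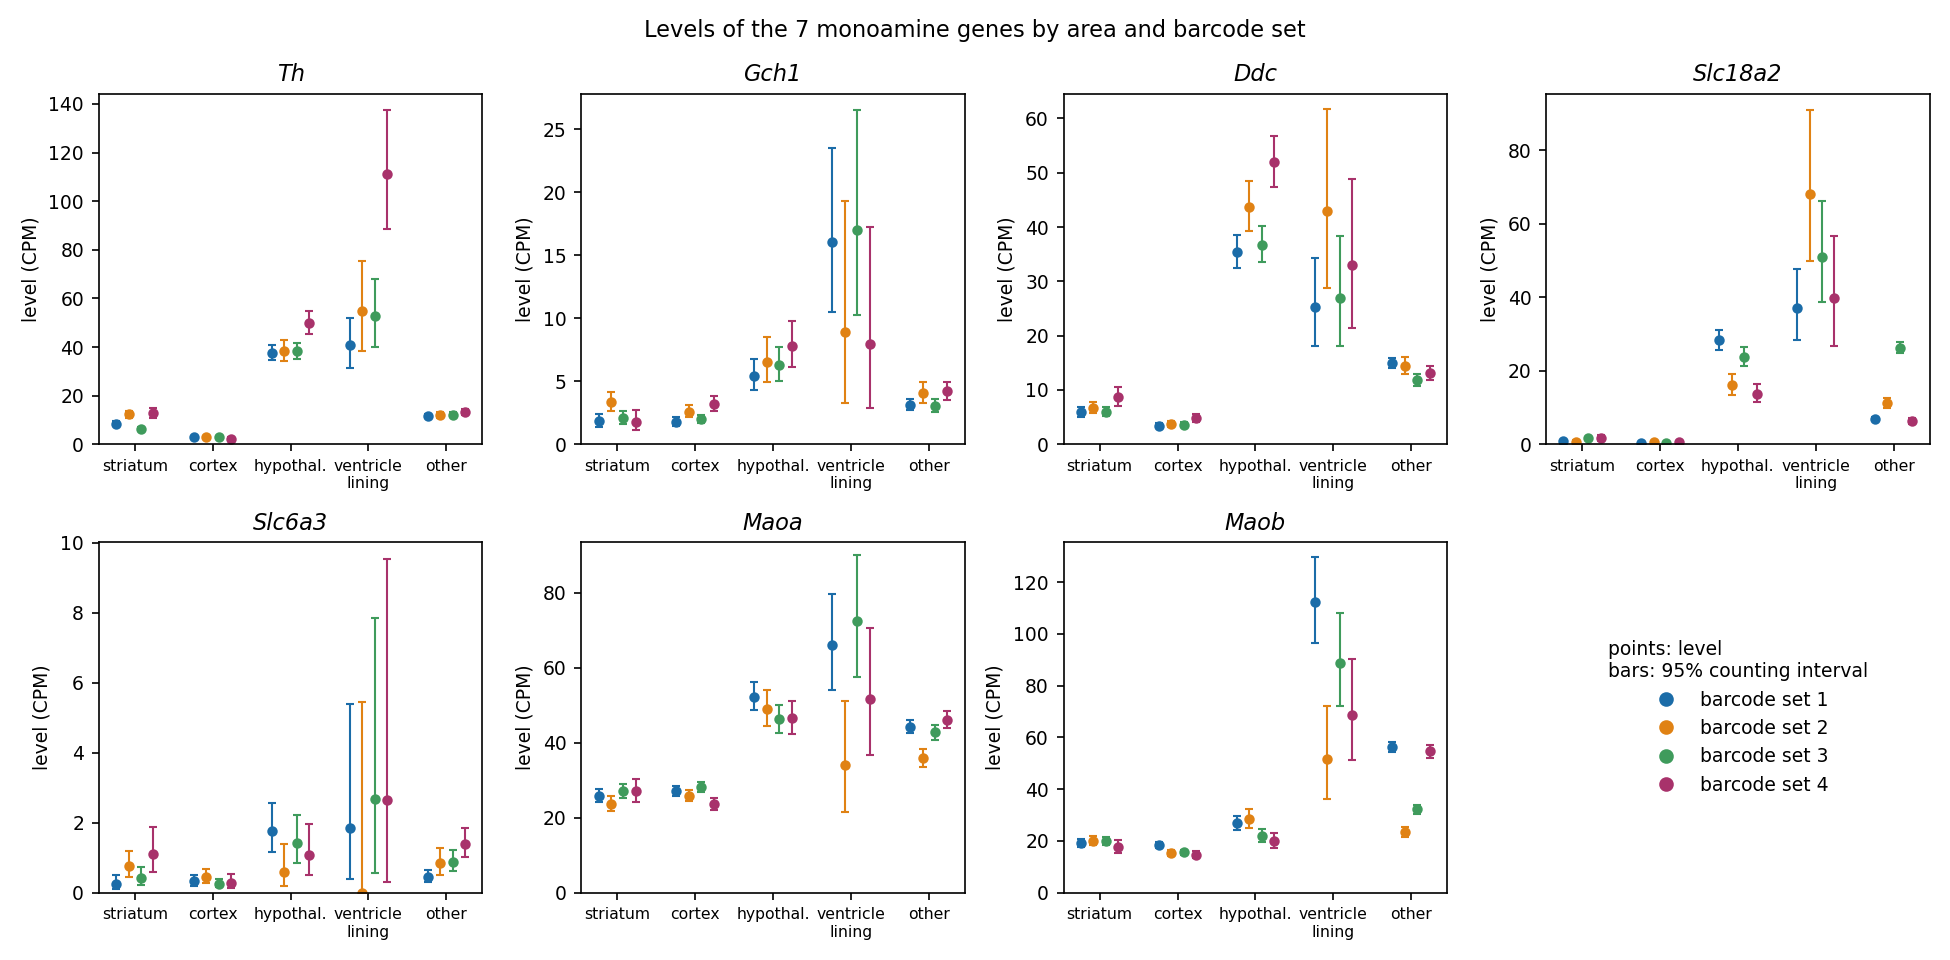
Level of each gene in CPM (y axis, starting at 0, each panel with its own scale) in the 4 areas and in all other spots (x axis), 1 point per barcode set with its 95% counting interval. Th stands at 37.7 CPM or more in the hypothalamus and ventricle lining of every set and at 3.01 CPM or less in the cortex.

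The synthesis genes Th, Gch1 and Ddc and the vesicular carrier gene Slc18a2 were higher in the hypothalamus, so that 4 of the 6 members tested were called there against 7.36% of all genes tested. No member was lower there, against 8.55% of all genes. The median log2 ratio of the 6 members was 1.37, beside 0.05 over all genes tested. The hypothalamus held between 28.9% and 37.9% of the Th counts of a section and between 7.68% and 10.3% of all counts.

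Th in the hypothalamus was at 37.7, 38.4, 38.3 and 49.99 CPM in sets 1 to 4, and at 7.94, 7.85, 6.65 and 9.41 CPM in all other spots of the same sets. The ratios were 4.74 (4.29 to 5.24), 4.88 (4.28 to 5.56), 5.76 (5.16 to 6.41) and 5.31 (4.72 to 5.97). The inside and outside levels did not overlap across the sets, and set 4 was the highest on both sides. Within the area, cluster 7, led by the neuropeptide genes Avp, Oxt and Trh, had 45.0, 64.3 and 49.4 CPM of Th in sets 1, 3 and 4. The same 4 members were higher in it (against 7.46% of all genes) and none was lower (9.44%). Cluster 22, led by Gal, Nts and Irs4, held 186 of the 225 hypothalamic spots of set 2, where Th was at 42.6 CPM. In its 15 spots of set 3 there were 2 Th counts, or 3.45 CPM (0.417 to 12.5). Cluster 18, led by Cartpt and Baiap3, had 5.62, 12.2, 24.1 and 51.5 CPM, so that Th differed between the sets within it. Ddc was the 1 member called higher in cluster 18, against 4% of all genes, and none was lower, against 7.54%.

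Ddc in the hypothalamus was at 35.4, 43.7, 36.8 and 51.9 CPM, with ratios to other spots of 4.03 (3.64 to 4.45), 5.96 (5.25 to 6.76), 5.56 (4.98 to 6.20) and 5.74 (5.11 to 6.45). Set 1 had the lowest ratio and its interval lay apart from those of the other sets. In cluster 18, where Th spread over a wide range, Ddc stayed at 35.2, 45.9, 35.6 and 44.8 CPM.

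Gch1 in the hypothalamus was at 5.43, 6.53, 6.25 and 7.80 CPM, with ratios of 2.17 (1.69 to 2.75), 2.05 (1.51 to 2.74), 2.60 (2.02 to 3.30) and 2.26 (1.72 to 2.93). The 4 intervals overlapped one another. Slc18a2 there was at 28.3, 16.03, 23.8 and 13.8 CPM, with ratios of 8.36 (7.35 to 9.51), 4.40 (3.58 to 5.37), 2.87 (2.53 to 3.25) and 4.03 (3.25 to 4.99). Its level was high in sets 1 and 3 and low in sets 2 and 4, with no overlap of the intervals of those pairs. The low ratio in set 3 went with a level of 8.29 CPM in its other spots, where the other sets had 3.39 to 3.65 CPM.

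Maoa in the hypothalamus was at 52.3, 49.03, 46.3 and 46.6 CPM, above the other spots in every set (ratios 1.53, 1.76, 1.43 and 1.38) but past 1.5-fold only in sets 1 and 2. Maob had no common direction there, with ratios of 0.771, 1.53, 1.01 and 0.616, of which that of set 3 turned under other scalings.

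The calls in the hypothalamus rested on how the spots were grouped. When set 4 was left out of the clustering, the area of set 1 shrank from 252 to 116 spots, 1 member (Ddc) was called higher in place of 4, and the log2 ratio of Th in set 1 was 0.37, beside 2.25 in set 2 and 1.37 in set 3. Under the other 12 settings that gave a value, Th, Gch1, Ddc and Slc18a2 were all called.

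**Figure D2:**
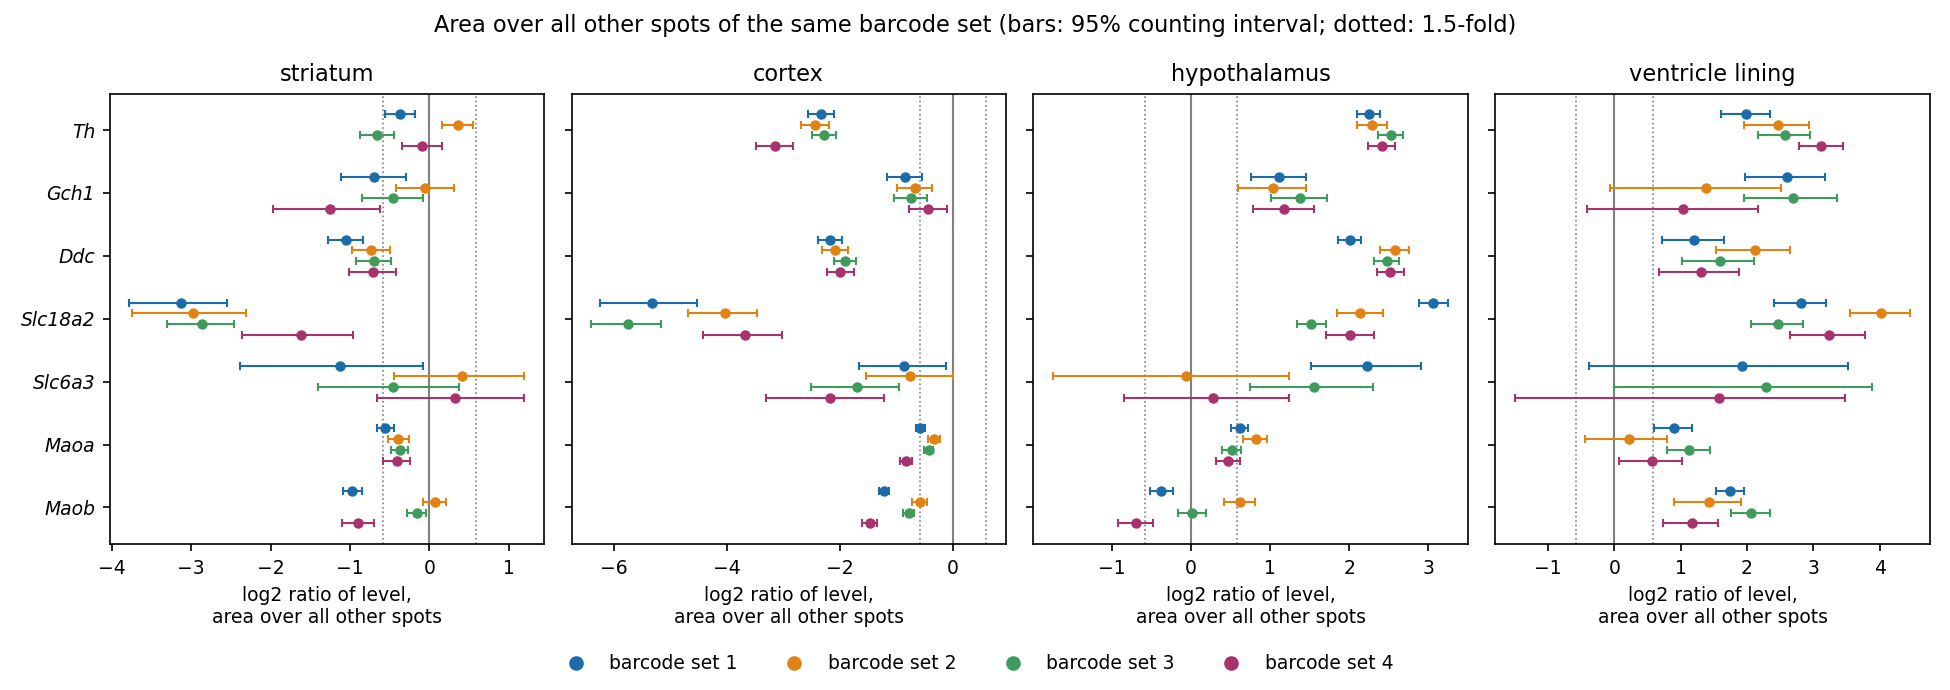
Log2 ratio of the level in an area to the level in all other spots of the same barcode set (x axis), for the 7 genes (y axis), 1 point per set with its 95% counting interval; dotted lines mark 1.5-fold. Th, Gch1, Ddc and Slc18a2 lie to the right in the hypothalamus and ventricle lining, and Th, Ddc and Slc18a2 to the left in the cortex; Slc6a3 had no count in the ventricle lining of set 2, so that point is not drawn.

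In the ventricle lining, Th, Gch1, Ddc, Slc18a2 and Maob were higher, which is 5 of 6 members against 12.9% of all genes tested. Th was at 40.7, 54.8, 52.8 and 111 CPM in sets 1 to 4, from 66, 37, 59 and 84 counts. Its ratios ran from 3.97 in set 1 to 8.69 in set 4, where the interval (6.88 to 10.9) lay above that of set 1 (3.05 to 5.07). Slc18a2 was at 37.0, 68.1, 51.0 and 39.7 CPM, with ratios from 5.51 to 16.2. Maob, the oxidase found mainly in glia and in serotonin neurons, was at 112, 51.8, 88.6 and 68.7 CPM, with ratios from 2.24 to 4.15. Gch1 rested on 26, 6, 19 and 6 counts, and its ratios of 2.61 in set 2 and 2.05 in set 4 had intervals that held 1. Its call was lost with thinned spots. Ddc was at 25.3, 42.9, 26.9 and 33.05 CPM, with ratios from 2.30 to 4.33 and 4 overlapping intervals. Maoa had ratios of 1.86, 1.16, 2.18 and 1.48, of which that of set 2 had an interval (0.732 to 1.74) that held 1 and turned under RLE scaling. No member was lower there, against 7.61% of all genes. This area was cluster 24 alone. All 12 ventricle-lining markers were also at least 2-fold up in cluster 21, and 9 of them in cluster 10. Both clusters were placed outside the area. Over the 4 sets together, Th had ratios of 0.302 in cluster 21 and 0.151 in cluster 10, and Slc18a2 of 0.69 and 0.295. Ddc had 0.393 and 4.12, Gch1 0.729 and 1.16, and Maob 2.72 and 1.1. The calls thus hold for cluster 24, not for all spots with such markers.

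The ventricle-lining spots were then split in each set at the median of their summed hypothalamic markers, a division added after the values were seen. Th had 63, 36, 58 and 71 counts in the spots above the median and 3, 1, 1 and 13 counts in the others. The levels were 96.2, 99.1, 101 and 180 CPM above the median and 3.10, 3.20, 1.85 and 35.9 CPM at or below it, with no overlap of the intervals within any set. Most Th counts of this area thus came from the spots with the higher hypothalamic marker level. In set 4 the spots at or below the median were still above the 12.8 CPM of the spots outside the area (interval 19.1 to 61.3). The median was that of each set, and these lower spots of set 4 reached 6167.6 CPM of hypothalamic markers. In sets 1 to 3 the spots above the median began at 3036.2, 3790.8 and 2273.9 CPM, so the lower group of set 4 was not free of such spots. Maob ran the other way, with 87.1, 44.0, 71.1 and 55.8 CPM above the median and 129, 60.9, 107 and 82.8 CPM at or below it; the intervals overlapped in every set. Slc18a2 was higher above the median in sets 1, 3 and 4 (80.9, 79.8 and 50.8 CPM against 7.23, 20.3 and 27.6 CPM), with overlapping intervals in set 4. In set 2 it was 52.3 CPM above and 86.5 CPM at or below, with overlapping intervals.

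**Figure D3:**
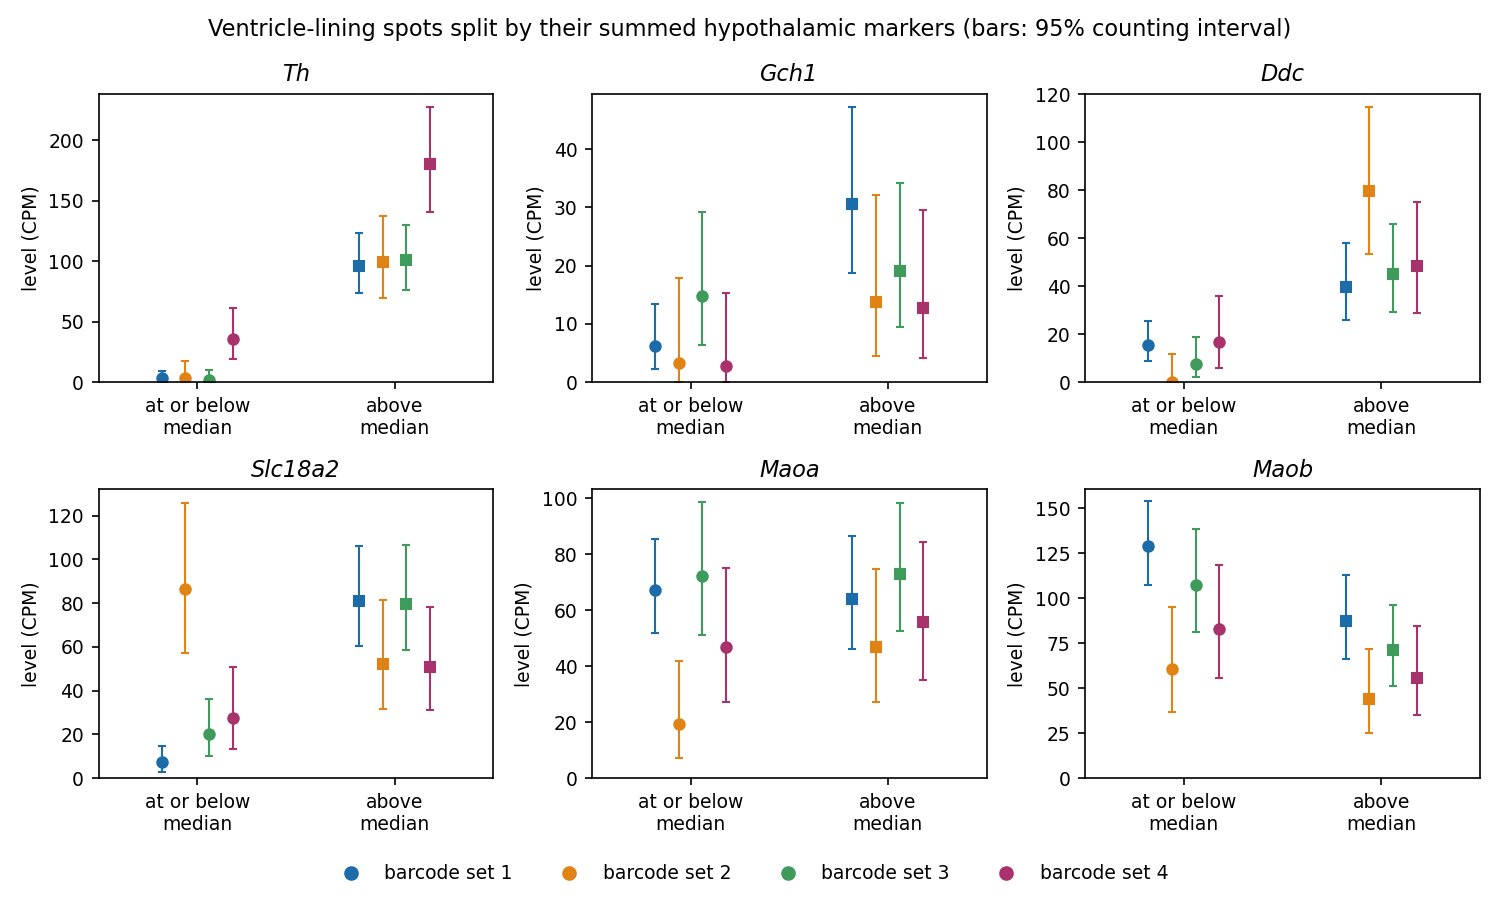
Level in CPM (y axis, from 0) of 6 genes in ventricle-lining spots at or below (circles) and above (squares) the median summed hypothalamic markers of their set, with 95% counting intervals. Th lies between 96.2 and 180 CPM above the median and at 35.9 CPM or less at or below it, while Maob is lower above the median in each set.

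In the striatum, Ddc and Slc18a2 were lower, 2 of 6 members against 15.4% of all genes tested, and no member was higher, against 5.73%. The median log2 ratio was -0.45 for the members and -0.11 for all genes. Slc18a2 was at 0.758, 0.725, 1.57 and 1.60 CPM, from 24, 18, 51 and 19 counts, and its ratios were 0.114 (0.0729 to 0.171), 0.127 (0.0744 to 0.202), 0.137 (0.101 to 0.181) and 0.326 (0.194 to 0.515). Set 4 had the highest ratio, with an interval above those of sets 1 and 3 that overlapped that of set 2. Ddc was at 5.91, 6.69, 6.01 and 8.68 CPM, with ratios from 0.482 to 0.615, and it kept the call under 6 of 15 other settings, whereas Slc18a2 kept it under all 15.

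Th in the striatum had no common direction. It was at 8.53, 12.3, 6.29 and 12.9 CPM, with ratios of 0.777 (0.680 to 0.884), 1.28 (1.12 to 1.46), 0.635 (0.545 to 0.737) and 0.941 (0.789 to 1.12). Sets 2 and 4 were high and sets 1 and 3 low, and the intervals of the levels of the high pair lay above those of the low pair. The share of striatal spots with a Th count was 28.2%, 27.2%, 19.9% and 20.7%, and after thinning each spot to 10000 counts it was 7.80%, 8.88%, 5.90% and 11.2%. The striatum held no spot with 3 or more Th counts after thinning, where the whole sections held 18, 9, 28 and 24. The striatal clusters were unevenly spread over the sets: cluster 6 took 547 of its 577 spots from set 2, and its part in the levels of Th was not tested.

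Maoa in the striatum was at 25.9, 23.8, 27.1 and 27.2 CPM, below the other spots in each set (ratios 0.681 to 0.771) but short of the 1.5-fold line. Maob was at 19.2, 20.1, 19.9 and 17.7 CPM with 4 overlapping intervals, while its ratios spread from 0.511 in set 1 to 1.05 in set 2. The level of Maob inside the striatum was thus alike in the 4 sets and its level in the other spots was not. The direction in set 3 (0.895) turned under both other scalings. Gch1 was at 1.83, 3.35, 2.10 and 1.77 CPM, with ratios of 0.619, 0.965, 0.730 and 0.419; the interval held 1 in set 2, where the direction turned under other scalings.

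In the cortex, Th, Ddc, Slc18a2 and Maob were lower, 4 of 6 members against 14.8% of all genes tested, and no member was higher, against 5.22%. The median log2 ratio was -1.39 for the members and -0.15 for all genes. Th was at 2.91, 3.01, 2.96 and 2.34 CPM (ratios 0.113 to 0.205), Ddc at 3.38, 3.68, 3.60 and 4.76 CPM (0.221 to 0.265) and Slc18a2 at 0.212, 0.492, 0.319 and 0.542 CPM (0.0185 to 0.0778). These 3 genes were called under all 15 other settings. Maob was at 18.3, 15.3, 15.6 and 14.8 CPM with ratios of 0.429, 0.662, 0.579 and 0.359, and it was called under 5 of the 15. The ratio of set 2 lay near the line of the call. Gch1 (ratios 0.551 to 0.735) and Maoa (0.561 to 0.792) were below the other spots of each set but did not pass 1.5-fold in all 4.

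Th was unevenly spread within the cortex, a pattern chosen after its values were seen. Cluster 13, led by Ccn2, Cplx3 and Nxph3, genes known from the deepest cortical layer, had 3.60, 5.46, 10.2 and 10.3 CPM in sets 1 to 4. Cluster 4, led by Trbc2, Myl4 and Vxn, had 5.25, 8.77 and 5.55 CPM in sets 1 to 3. Cluster 17, led by Kcnab3 and Rorb, a layer 4 marker, had 1, 2 and 0 Th counts in sets 1 to 3, where 0 counts in set 3 allow up to 0.375 CPM. Cluster 11, led by Cux2, a marker of upper layers, had 2, 9 and 2 counts, or 0.233, 0.807 and 0.226 CPM. In sets 1 to 3 the intervals of clusters 13 and 4 lay above those of clusters 17 and 11.

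**Figure D4:**
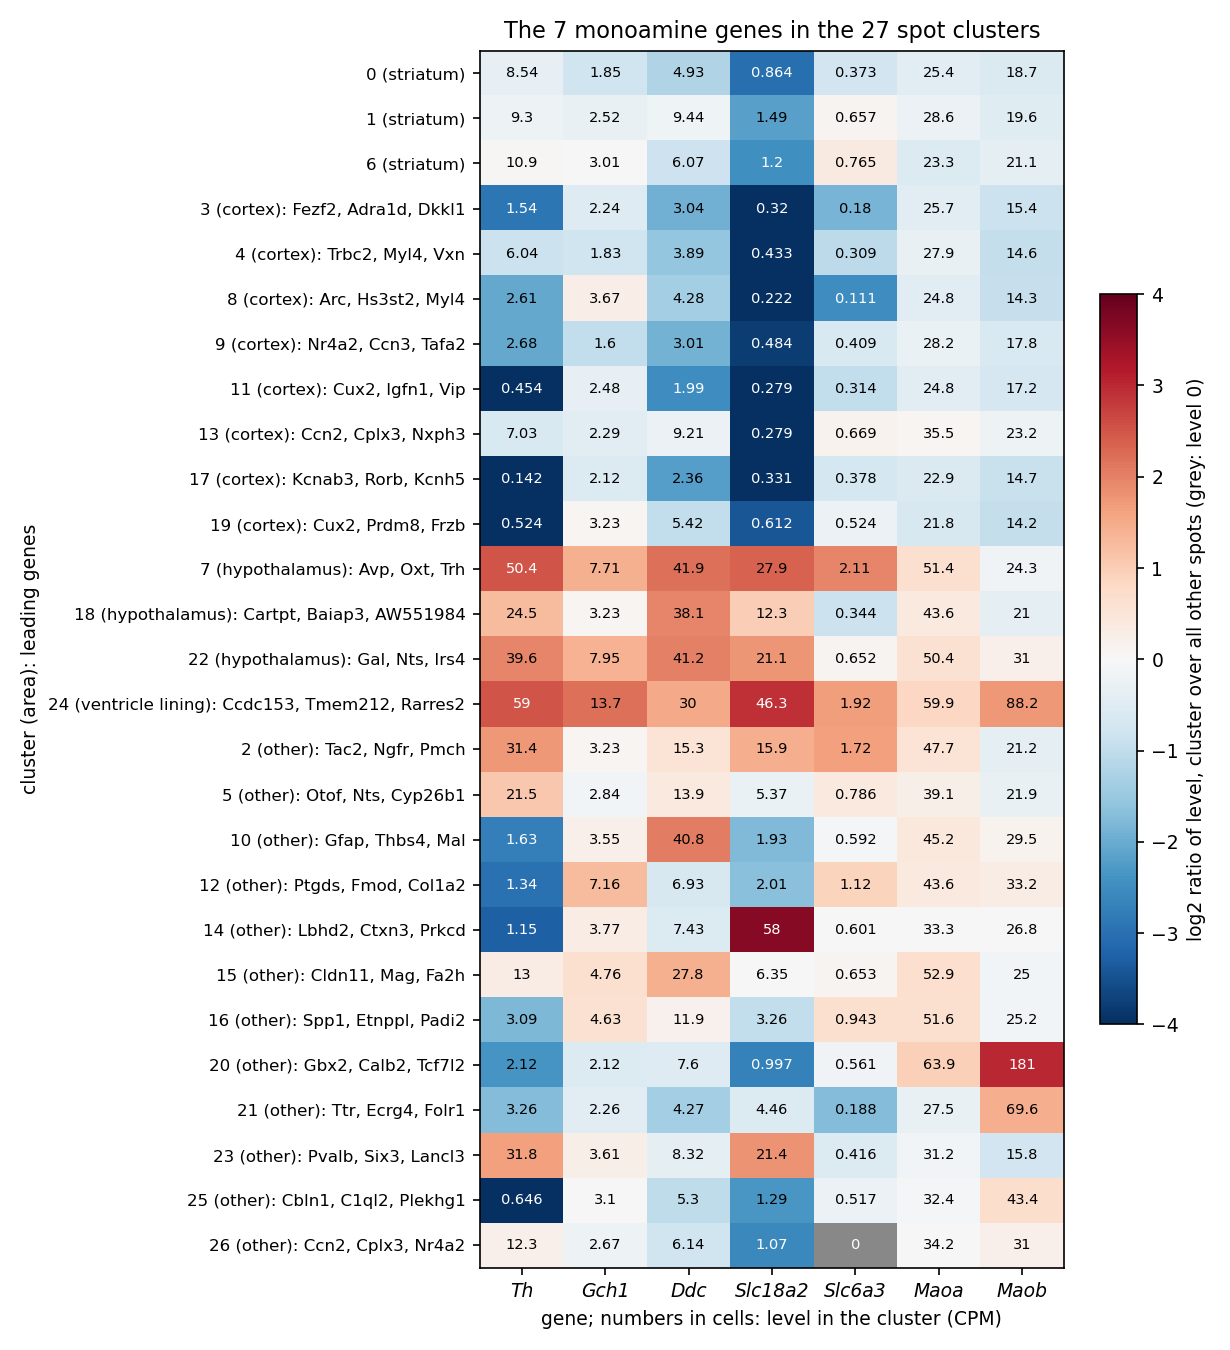
The 27 spot clusters (rows, with area and, outside the striatum, leading genes) and the 7 genes (columns); colour is the log2 ratio of the level in a cluster to that in all other spots, the 4 sets together, and each cell prints the level in CPM. Slc18a2 stands out in cluster 14 (58.0 CPM) and Maob in cluster 20 (181 CPM), each with little Th (1.15 and 2.12 CPM). Ddc in cluster 10 (40.8 CPM, with Th at 1.63 CPM) is near its levels in the hypothalamic clusters 7 and 22 (41.9 and 41.2 CPM).

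In some clusters outside the 4 areas, 1 member alone passed the 1.5-fold line upward. Ddc was higher in cluster 10, led by Gfap, Thbs4 and Mal, in which all 11 white-matter markers and 9 of 12 ventricle-lining markers were at least 2-fold up. It was the only member of 6 called higher there, against 14.7% of all genes, so that the count of members was near the share over all genes. Its levels were 42.8, 51.5, 39.3 and 20.5 CPM, and its ratios 4.48, 5.35, 4.61 and 1.53, the last with an interval (0.996 to 2.25) that held 1. Maoa was above other spots in all 4 sets (ratios 1.29 to 1.42), under that line. Th had 10, 1, 6 and 5 counts in the same spots and was lower in all 4 sets, as was Slc18a2, against 16.3% of all genes. Slc18a2 rested on 19, 2, 3 and 2 counts, and its intervals in set 2 (0.04 to 1.2) and set 4 (0.042 to 1.26) held 1. Ddc was also higher in the myelin-rich cluster 15, led by Cldn11 and Mag, at 29.1, 44.0, 28.8 and 20.98 CPM, where 7.02% of all genes were higher and, with no member among them, 8.23% lower.

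Over the 4 sets together, Slc18a2 was highest in cluster 14, led by Lbhd2, Ctxn3 and Prkcd, which held 26, 138 and 262 spots of sets 1 to 3 and none of set 4. Its levels there were 39.4, 32.7 and 71.5 CPM, with ratios of 7.34, 10.5 and 14.9, and it was the only member of 6 called higher, against 4.19% of all genes. In set 2 the ventricle lining was above it, at 68.1 CPM, and in set 3 the 15 spots of cluster 22 were at 77.5 CPM, with an overlapping interval. Th had 1, 8 and 12 counts in these spots and was lower, against 6.19% of all genes. In cluster 23, led by Pvalb and Six3, Slc18a2 was also higher (27.7 CPM in set 1 and 10.8 in set 4, against 5.02% of all genes). Th there was at 42.1 CPM in set 1 and 14.5 CPM in set 4, with a ratio of 1.07 (0.753 to 1.46) in set 4, and Ddc was at 9.31 and 6.67 CPM. Maob was the 1 member of 6 lower there, near the 14.6% of all genes. Both Th and Slc18a2 were higher in cluster 2, led by Tac2, Ngfr and Pmch, against 4.08% of all genes, with no member lower, against 7.88%. Th was at 31.6, 24.4, 37.5 and 32.5 CPM in it and Slc18a2 at 15.1, 9.03, 21.97 and 17.7 CPM.

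Maob and Maoa were both higher in cluster 20, led by Gbx2, Calb2 and Tcf7l2, in which all 9 thalamic markers were at least 2-fold up, 2 of 6 members against 6.22% of all genes. Maob was at 188 CPM in set 1 (7.25, 6.85 to 7.67) and 173 CPM in set 4 (9.05, 8.39 to 9.76). Maoa was at 65.9 and 61.0 CPM, with ratios of 1.93 and 1.85. Set 2 had no spot of this cluster and set 3 had 3. Maob was higher too in cluster 21, led by the choroid plexus gene Ttr, at 82.9, 29.5, 63.8 and 53.3 CPM, against 8.53% of all genes, and Th was lower there, against 8.15%. Gch1 was higher in cluster 12, led by Ptgds, Fmod and Col1a2, with all 11 meningeal markers at least 2-fold up, at 6.41, 8.37, 5.50 and 10.2 CPM, also against 8.53%. Th and Slc18a2 were lower there, against 4.41% of all genes, and Th and Slc18a2 were lower in cluster 20, against 13.3%.

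Over whole sections, Slc18a2 and Maob differed at least 1.5-fold between their highest and lowest set, 2 of 6 members against 46.2% of all genes tested, a share of genes so large that the members do not stand out. Slc18a2 was at 5.57, 4.596, 9.54 and 4.49 CPM in sets 1 to 4, and set 3 was 2.13-fold (1.91 to 2.38) above set 4. Cluster 14 held 53.3% of the Slc18a2 counts of set 3, 35.9% of set 2, 4.21% of set 1 and none of set 4. Without its spots the levels were 5.37, 3.10, 4.80 and 4.49 CPM, set 1 was the highest, and the range was still 1.73-fold. Maob was at 34.2, 19.4, 21.8 and 31.0 CPM, and set 1 was 1.76-fold (1.67 to 1.85) above set 2. Without cluster 20, which held 28.2% of the Maob counts of set 1 and 43.1% of set 4, the levels were 25.9, 19.4, 21.8 and 19.1 CPM, a range of 1.36-fold. Each cluster left out was the one where the gene was highest over the 4 sets together, a step added after the values were seen. A fall in the sets that held its spots was thus fixed in advance, and its part in the set differences was not tested.

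**Figure D5:**
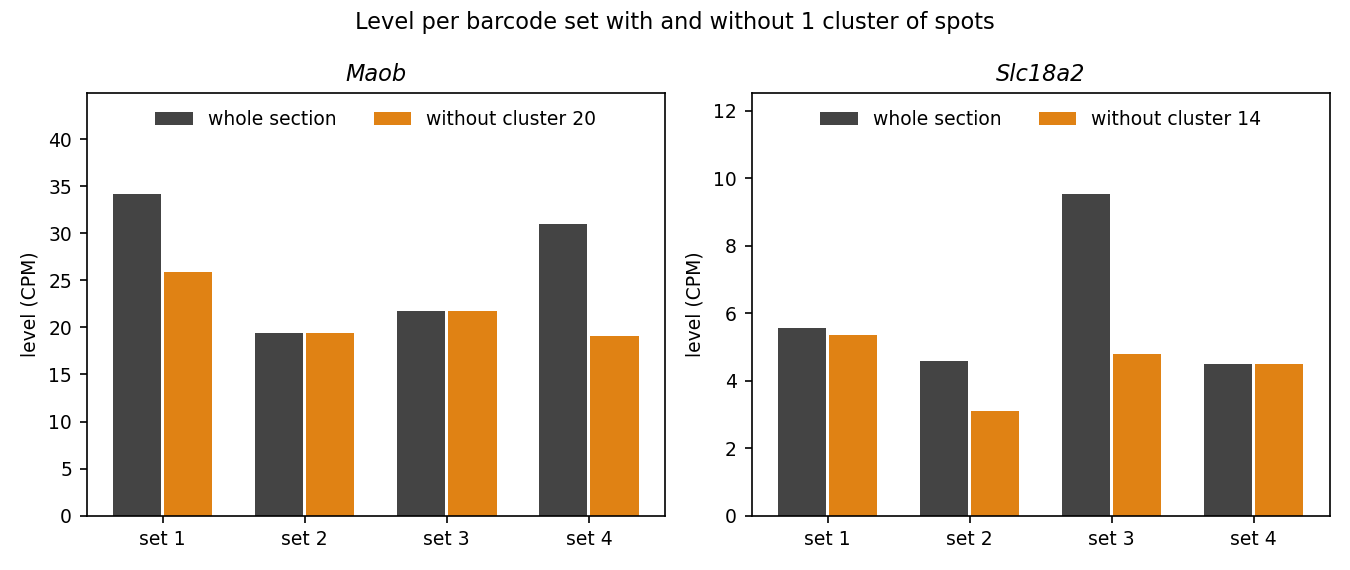
Level in CPM (bars from 0) of Maob and Slc18a2 in each barcode set, over all spots (grey) and without the spots of cluster 20 or cluster 14 (orange). Without cluster 20 the Maob range falls from 1.76-fold to 1.36-fold, and without cluster 14 the Slc18a2 level of set 3 falls from 9.54 to 4.80 CPM. Each cluster was chosen, after the values were seen, for its high level of the gene, so lower levels in the sets that held it were fixed in advance.

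The whole-section levels of Th were 10.5, 10.2, 9.19 and 13.6 CPM, those of Ddc 11.1, 10.1, 9.03 and 13.5 CPM, and those of Gch1 2.76, 3.44, 2.72 and 3.90 CPM. Set 4 was the highest and set 3 the lowest for all 3 synthesis genes, at 1.48-fold, 1.49-fold and 1.44-fold, just under the 1.5-fold line. This order holds for unscaled CPM. The whole-section factors were 0.9394 (TMM) and 0.9333 (RLE) in set 3 and 1.0998 and 1.0932 in set 4. Dividing the levels by them narrows the gap between sets 4 and 3 for each of the 3 genes. For Th it also puts set 2, with factors of 1.0444 (TMM) and 1.0402 (RLE), just below set 3 under both scalings. Maoa was the most even, at 35.8, 29.5, 33.5 and 35.1 CPM. Set 4 also had the highest summed hypothalamic markers (1434, 761, 751 and 1653 CPM in sets 1 to 4), whose part in these ranges was not tested. Inside the cortex, set 4 had the lowest Th in place of the highest.

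Slc6a3, the dopamine carrier gene, was near the limit of detection. It had 87, 68, 93 and 82 counts in the 4 sections, or 0.498, 0.620, 0.563 and 0.904 CPM, and so did not enter the calls. The 6 midbrain dopamine neuron markers in the table summed to 2.84, 2.64, 2.403 and 4.29 CPM. Foxa1, Foxa2 and Lmx1b were under 1 CPM in every set, Pitx3 was at 0.332, 0.602, 0.321 and 1.21 CPM and En1 at 0.418, 0.885, 0.375 and 1.201 CPM. Lmx1a ran otherwise, at 1.72, 0, 1.253 and 0.331 CPM. The order of the sets in Slc6a3 is given as a value only. In the hypothalamus Slc6a3 had 27, 5, 19 and 10 counts, with ratios of 4.69 (2.86 to 7.51) in set 1, 2.94 (1.68 to 4.92) in set 3 and intervals that held 1 in sets 2 and 4. All 27 and 10 of these counts in sets 1 and 4, and 14 of 19 in set 3, were in cluster 7. Slc6a3 was not confined to the hypothalamus. In cluster 2, outside the 4 areas, it had 5, 13, 19 and 14 counts in sets 1 to 4. The ratios there were 1.41 (0.448 to 3.44), 2.93 (1.47 to 5.43), 4.83 (2.76 to 8.09) and 2.94 (1.53 to 5.27). In the striatum it had 8, 19, 14 and 13 counts, and the interval of the ratio left out 1 in set 1 alone (0.458, 0.191 to 0.947).

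Single spots were compared after thinning to 10000 counts, which left out 199 of 12601 spots. Spots with 3 or more Th counts, a line drawn after the values were seen, numbered 18, 9, 28 and 24, of which 10, 3, 18 and 14 were in the hypothalamus. Slc18a2 in them was at 44.4, 44.4, 67.9 and 29.2 CPM and in spots without a Th count at 5.31, 4.38, 11.2 and 3.83 CPM. The intervals of the groups did not overlap in any set, although those of the Th-rich spots rest on 8, 4, 19 and 7 Slc18a2 counts. Ddc was at 33.3, 33.3, 39.3 and 45.8 CPM in the Th-rich spots and at 12.4, 10.95, 10.4 and 12.8 CPM in those without Th, and the intervals overlapped in sets 1 and 2. Maoa was at 55.6, 77.8, 67.9 and 79.2 CPM in the Th-rich spots and at 34.7, 29.4, 36.55 and 35.5 CPM in those without Th. Its intervals overlapped in sets 1 and 2 and lay apart in sets 3 and 4. Maob was at 33.3, 22.2, 39.3 and 25.0 CPM in the Th-rich spots and at 30.4, 19.6, 22.6 and 29.2 CPM in those without Th, with overlapping intervals in all 4 sets. Gch1 had 0, 0, 5 and 2 counts in the Th-rich spots. The groups also differed in area. Of the spots without a Th count, 187 of 2789, 172 of 2558, 224 of 3160 and 196 of 2793 were in the hypothalamus. The part of area in these differences was not tested.

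Across the 76 sums of a cluster in a set with at least 30 spots, the pattern of Th was most like those of Trh (Pearson r 0.82), Gpr101 (0.78) and Qpct (0.77) among 11466 genes. For Slc18a2 the nearest genes were Magel2 (0.86), Tmem255a (0.85) and Glp1r (0.85), for Ddc Ncam1 (0.86), Adgrg1 (0.83) and P3h4 (0.83), and for Gch1 Pald1, Apoe and Dpf3 (all 0.68). For Maoa they were Gdpd2 (0.84), Gnai2 (0.83) and 2310022B05Rik (0.83), for Maob Epb41l5 (0.75), Anxa2 (0.73) and Tgfb2 (0.71), and for the sparse Slc6a3 Avp (0.56), Oxt (0.55) and Npas3 (0.54). Among the members, Ddc and Maoa had r 0.70, Th and Slc18a2 0.63, Th and Ddc 0.60, and Th and Maob 0.01. Maoa and Maob, which are neighbours on the X chromosome, had r 0.49. Ranked by Spearman correlation, Magel2 and Tmem255a were at 22 and 49 for Slc18a2, and Avp and Oxt at 79 and 52 for Slc6a3. These sums share libraries and clusters, so the values describe likeness and carry no test.

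The other genes of the pathway were read from a list of 29, of which 20 had a mean of at least 1 CPM. In the hypothalamus 2 of the 20 were higher, against 7.36% of all genes, and 1 was lower, against 8.55%, both near the share over all genes. The higher ones were Pcbd1 (95.01, 92.3, 75.3 and 78.7 CPM, ratios 3.64 to 9.39) and Pcbd2 (ratios 1.56 to 1.96), which code for enzymes that recycle the tetrahydrobiopterin cofactor. The lower one was Aldh1a1 (ratios 0.265 to 0.391), an aldehyde dehydrogenase found in midbrain dopamine neurons. In the ventricle lining 3 of the 20 were higher, near the 12.9% of all genes: Pcbd1, Pcbd2 and Gchfr, the feedback regulator of the Gch1 enzyme (ratios 3.95 to 11.3). Qdpr, another recycling enzyme gene, was the 1 lower gene there (0.431 to 0.618), against 7.61% of all genes.

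In the striatum 1 of the 20 list genes was higher, against 5.73% of all genes, and 2 were lower, against 15.4%, no more than the share over all genes. Slc22a3, a low-affinity monoamine carrier gene, was at 18.1, 13.7, 9.90 and 16.4 CPM inside and 3.30, 3.38, 1.65 and 4.80 CPM outside, with ratios of 5.50, 4.05, 6 and 3.40. Slc29a4, which codes for another low-affinity carrier (PMAT), ran the other way at 8.88, 6.09, 6.10 and 10.5 CPM (ratios 0.185 to 0.347), and Pcbd1 was lower as well (0.152 to 0.326). The levels of these carrier genes thus lay in opposite directions in the striatum in every set. In the cortex 6 of the 20 were lower, Gchfr, Qdpr, Pcbd1, Hdc, Slc22a3 and Slc29a4, against 14.8% of all genes, and none was higher, against 5.22%. The 6 became 4 with a 2-fold line, under TMM and RLE scaling and without set 4, Qdpr and Hdc being lost, and 4 with thinned spots. The serotonin carrier gene Slc6a4 and the noradrenaline enzyme gene Dbh were under 1 CPM in all 4 sets.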

How the data were processed

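The authors deposited 1 table of raw counts per gene and spot, and a check found 0 values that were negative or not whole. Space Ranger and Seurat are named in the submitters' processing notes; genome build, probe set and spot filters are not given in the sources used here. Spots under 500 counts were left out, which removed 1 spot. Clusters came from counts scaled to 10000 per spot and log-transformed, 2000 variable genes without the members, the pathway list, Celsr and sex-linked genes, centring within sets, 30 principal components, 15 neighbours and Leiden clustering (scanpy 1.11.5 and scikit-learn 1.9.0; leidenalg 0.10.2, seed 0, resolution 0.8). Leading genes are those with the largest fold of CPM inside over outside a cluster, with 10 CPM added. A cluster took the area with the largest share of markers at least 2-fold up, with a minimum of 3 markers and of 1 in 3 of the list, unless its first leading gene marked another area or another list had as many markers among its 10 leading genes. This naming rule was chosen after the leading genes were seen.

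CPM levels divide a gene's counts, summed over spots, by all counts there, times 1000000, with exact Poisson intervals. Ratios have exact conditional binomial intervals and shares exact Clopper-Pearson intervals, all at 95% (scipy 1.17.1). Clusters were compared over sets with at least 10 of their spots. Median log2 ratios used 1 CPM added. The genes named were the members, list genes called in an area, the 3 genes most like each member (mean of at least 5 CPM) and leading genes of clusters. The members and lists were chosen with earlier results of these data known. The alternatives were resolutions 0.4 and 1.2, no centring, minimums of 1 and 2000 counts, areas by the marker level of each spot, clustering without each set, a 2-fold line, no filter on genes, TMM and RLE scaling (edgeR 4.0.16), thinning and Spearman correlation. The calls and intervals were run on simulated Poisson counts, the calls with planted changes larger than the 1.5-fold line. The simulated counts had no spread between spots, so they do not show how the calls perform in these data.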

Additional observations from a re-analysis of the deposited data

How the results depend on the processing

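No paired analysis was possible because the barcode endings carry no sample or replicate number. Counting depth limits Slc6a3 everywhere and Gch1 in the ventricle lining. Of the members' log2 ratios recomputed under an alternative, 1005 stayed inside the main interval and 150 moved outside it. Another 3 lay outside it with the opposite sign. In all, 25 changed sign. In 22 of these the main interval held a log2 ratio of 0, among them Th in the striatum of set 4 (-0.09, 0.10 under RLE scaling). The 3 with a main interval that left out 0 were Gch1 in the hypothalamus of set 1 (-0.0068 without set 4 and 1.1250 without set 2), and Maob in the striatum of set 3 (0.0095 under TMM scaling and 0.0070 under RLE scaling). The other scalings moved all genes by 0.20 to 0.26 log2 in the cortex and by -0.24 to -0.15 in the ventricle lining, and the share of calls that were higher went from 26.0% to 46.2% (TMM) and 47.2% (RLE) in the cortex, from 27.1% to 35.4% and 41.1% in the striatum, and from 63.0% to 48.9% and 50.3% in the ventricle lining. Members lower in the striatum were 1, not 2, at resolution 1.2, with minimums of 1 and 2000 counts, with a 2-fold line and under TMM and RLE scaling; the gene lost was Ddc. Leaving out each set gave 1 to 2 there, and 1 to 4 members higher in the hypothalamus, 1 being without set 4. With thinned spots 4 members, without Gch1, were higher in the ventricle lining. Of the 29 pathway genes, those higher in the hypothalamus were 1 with a 2-fold line, under TMM and RLE scaling and with thinned spots, and 1 to 2 without a set. Those lower there were 0 at resolution 1.2 and with a minimum of 2000 counts, and 1 to 2 without a set. Those lower in the ventricle lining were 0 by marker level and with a 2-fold line, 2 under TMM and RLE scaling, 3 with thinned spots and 1 to 2 without a set; those higher there were 3 to 5 without a set. Those higher in the striatum were 2 with no filter and 1 to 2 without a set.

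Across sets, 1 member and 5 pathway genes passed a 2-fold line. Inside the hypothalamus 1 member, and inside the ventricle lining 6 members and 14 pathway genes, passed 1.5-fold. The share over all genes was not computed for these counts, so they show nothing particular to the members or the list. Over whole sections 46.2% of all genes tested passed 1.5-fold. The log2 ratio of the highest to the lowest whole-section set turned inside the striatum for Gch1 (-0.2440), Slc18a2 (-0.0266) and Maob (-0.0704), inside the cortex for Th (-0.3405), Slc18a2 (-0.7658) and Slc6a3 (-0.1901), inside the hypothalamus for Slc6a3 (-0.7251) and Maob (-0.0844), and inside the ventricle lining for Gch1 (-1.1001). The causes were not tested. The ventricle lining gave no value at resolution 0.4, without centring, with a minimum of 2000 counts and without set 3 or 4, and the hypothalamus none without centring or set 3, since a set had under 10 spots of the area.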
